A study of Mus musculus with 36 samples.

Results

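Gene expression in the peripheral blood of FVB/NJ mice was compared with that of 5 other inbred strains. The comparison used the 3 FVB/NJ arrays among the 18 arrays hybridized with globin-depleted (GLOBINclear) RNA, out of 36 arrays in the series, and set the FVB/NJ mean against the mean of the 5 other strain means. The other strains were 129S1/ImJ, A/J, C57Bl/6J, C3H/HeJ and DBA/2J, with 3 mice each. The protocol text writes the first of them as 129S1/SvImJ. All animals were untreated males of 8 weeks bled from the heart under isoflurane, and the RNA of every array compared had passed through a kit that captures alpha and beta globin mRNA. The remaining 18 arrays held undepleted (whole) RNA of the same mice and were used to see whether a difference pointed the same way. They also entered the mean levels over all 36 arrays that chose the probe sets, and 1 alternative averaged both preparations. Each strain is isogenic, so the 3 mice of a strain measure the spread between animals and not the spread of genotypes. A difference between FVB/NJ and the rest is a difference between 1 genotype and 5.

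Blood RNA comes from reticulocytes, which still carry the mRNA of hemoglobin synthesis and red cell maturation, from platelets, and from smaller numbers of lymphocytes, monocytes and granulocytes. MHC class II molecules, made of an alpha and a beta chain, present peptides on B cells and monocytes to helper T cells, and their genes lie in the H2 complex, whose haplotype differs between inbred strains. FVB/NJ carries the q haplotype, and strains of the q and b haplotypes are known not to express the alpha chain gene H2-Ea. Interferon-stimulated genes encode antiviral proteins and are switched on through factors such as Irf7, which amplifies the type I interferon response.

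Levels are log2 summaries per probe set, so a difference of 1.00 is a doubling. A gene was represented by its brightest probe set, and "past the threshold" means a limma p-value below 0.05 after Benjamini-Hochberg adjustment over all tested probe sets. Defining markers of blood were present in the FVB/NJ arrays. The heme synthesis enzyme Alas2 stood at 13.84, 13.86 and 13.96, the 21 platelet markers tested averaged 9.88 to 10.4, and the 6 heart muscle markers tested averaged 3.17 to 3.85, with 10 others, among them Myh7 and Nppa, below the level for testing. The FVB/NJ arrays lay within the range of the 15 others in the number of probe sets at or above log2 5 (4080 to 4515, against 3802 to 5278) and in the 3′ to 5′ difference of the actin and Gapdh controls (0.90 to 1.21, against 0.81 to 1.51). They correlated with each other at 0.973, 0.99 and 0.976, the highest value being that of replicates 1 and 3. Replicate 2 had the lowest summed B cell and T cell markers of the 3 and the highest mean of the red cell membrane genes (7.98, against 7.23 in each of the others).

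Of 11353 tested genes, 292 were higher in FVB/NJ (2.57%) and 121 were lower (1.07%). Per probe set, 804 of 22518 passed (3.57%), of which 583 were higher (2.59%) and 221 lower (0.981%). At least 2-fold differences were counted for 286 probe sets higher (1.27%) and 130 lower (0.577%). The median difference over all tested genes was 0.00. The 3 FVB/NJ arrays lay above all 15 others for 99 genes (0.872%) and below all of them for 38 (0.335%). These counts rose to 303 without FVB/NJ replicate 2 and to 128 without FVB/NJ replicate 1. They were 30 and 14 when only genes averaging log2 5 or more were kept. That set is much smaller, with 1107 genes at log2 5 to 7, 408 at 7 to 9 and 360 above 9. The 30 and 14 can thus not be set against the counts over all 11353 genes. Against single strains the number of genes past the threshold ran from 790 for 129S1/ImJ (6.96%) over 404 for C57Bl/6J (3.56%), 371 for A/J (3.27%) and 280 for C3H/HeJ (2.47%) to 267 for DBA/2J (2.35%). Only 22 genes were higher than in each of the 5 strains (0.194%) and 8 were lower than in each (0.0705%, or 0.0444% per probe set). Most called genes set FVB/NJ apart from some of the strains, most often 2 of them, as held for 95 of the 292 higher and 53 of the 121 lower genes. The number of calls dropped to 141 higher and 72 lower genes without FVB/NJ replicate 1, and to 158 and 60 without replicate 3. Of genes up to log2 3.5, 0.926% were higher and 0.182% lower, and of genes above log2 9, 8.61% and 3.33%. When the 15 other arrays were treated as 1 group, so that differences among the other strains counted as error, 67 genes were higher and 14 lower. For the genes described, calls that did not hold in this 2-group fit are given with them, except for Gsta2, which was not followed through it. Of the 292 higher genes, Itih4 and Trip4 passed the filter on low values only through FVB/NJ, with means of 2.80 and 2.84 over the 30 arrays of the other strains.

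**Figure D1:**
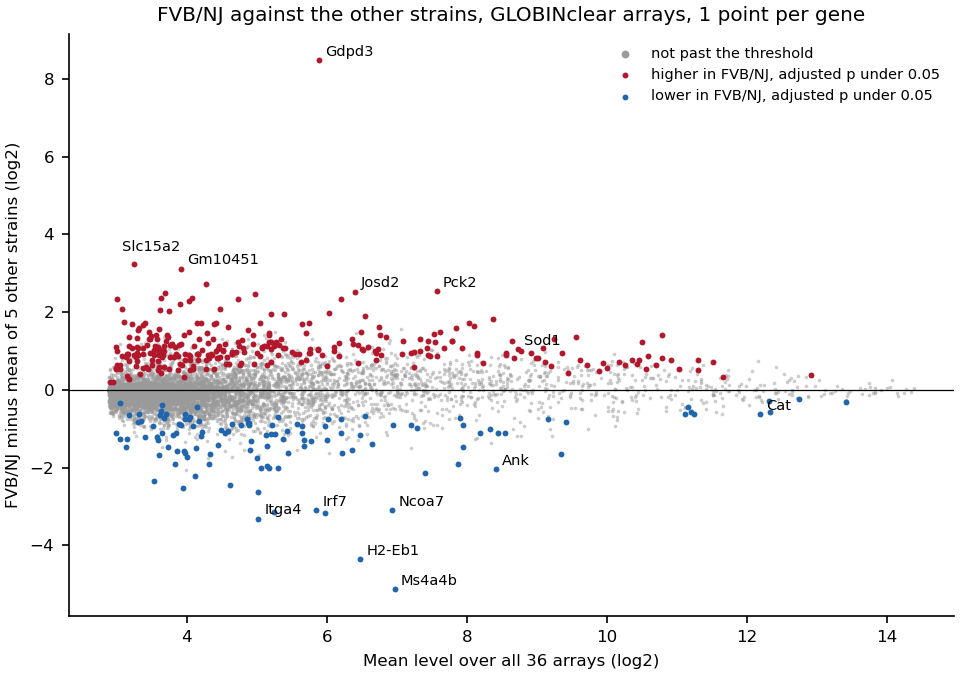
Difference between FVB/NJ and the mean of the 5 other strains (vertical axis, log2) against the mean level over all 36 arrays (horizontal axis, log2), 1 point per tested gene. Red points are the 292 genes past the threshold and higher in FVB/NJ, blue points the 121 lower ones, and the labelled genes run from Gdpd3 at 8.48 to Ms4a4b at -5.13.

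The gene furthest below the other strains was Ms4a4b, which encodes a membrane protein of T cells that modulates their activation. FVB/NJ arrays read 3.38, 3.30 and 3.37, and the 15 others ran from 6.94 over a median of 8.52 to 10.3. The groups did not overlap, and FVB/NJ was lower than each of the 5 strains. The difference was -5.13 ± 0.42 (SE, 3 arrays against 15), a 35.0-fold lower level (limma adjusted p = 5.88e-06). In whole RNA the same mice read 3.08, 3.49 and 3.15, against 5.50 to 9.03. The other 21 T cell markers tested did not pass the threshold, and 19 of the 22 had a negative difference. Their summed level (log2 of the sum of linear values) without Ms4a4b was 9.77, 9.22 and 9.77 in FVB/NJ, against 8.93 to 12.01 in the others, and the part of T cell content in the result was not tested. The 8 arrays of other strains whose summed T cell markers were no higher than the highest FVB/NJ array had Ms4a4b at 6.94 to 8.60. These arrays were chosen by the highest FVB/NJ level, 9.77, and were not matched to the lowest, 9.22. In bulk blood, fewer cells of a type and less RNA per cell cannot be told apart. Ms4a4b rests on 1 tested probe set, as do H2-Eb1 and Borcs5 below. Whether the probes match the FVB/NJ sequence was not tested for any gene.

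MHC class II genes were lower in FVB/NJ for 2 of the 10 members tested, where 1.07% of all genes were, and all 10 differences were negative, with a median of -0.99. The beta chain gene H2-Eb1 read 3.47, 3.27 and 3.59 in FVB/NJ, against a lowest value of 4.95, a median of 8.21 and a highest of 9.75. The groups did not overlap, the difference was -4.35 ± 0.52 (limma adjusted p = 0.000223), and FVB/NJ was lower than each of the 5 strains. H2-DMb2, a beta chain of the H2-DM molecule that loads peptides onto class II, read 3.71, 2.98 and 2.97, against 3.75 to 7.51 with a median of 5.68. The groups touched without overlapping. Its difference was -2.63 ± 0.50 (limma adjusted p = 0.00742) and missed the threshold without FVB/NJ replicate 3 (adjusted p = 0.0551) and in the 2-group fit (0.0719). Of the other probe sets of H2-DMb2, 1 was lower as well (-3.00) and 1 was not (-0.22).

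The promoters of these genes share a short motif, and they are shown because H2-Eb1 and H2-DMb2 were past the threshold while H2-Aa, with the same motif, was not. Each line gives 100 bases of RefSeq sequence (GRCm38.p6, 5′ to 3′ on the gene's strand) that lie before the start of the gene, with the Y box core TGATTGG in capitals. H2-Eb1 is at chr17:34305759-34305858 (plus strand), H2-DMb2 at chr17:34145110-34145209 (plus strand) and H2-Aa at chr17:34287824-34287923 (minus strand).
H2-Eb1: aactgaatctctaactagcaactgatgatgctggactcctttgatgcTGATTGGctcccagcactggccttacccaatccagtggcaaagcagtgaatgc
H2-DMb2: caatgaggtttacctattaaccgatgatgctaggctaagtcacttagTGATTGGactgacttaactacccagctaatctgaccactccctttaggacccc
H2-Aa: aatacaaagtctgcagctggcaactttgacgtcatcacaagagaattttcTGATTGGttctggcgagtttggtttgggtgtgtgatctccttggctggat
Of the 10 class II members tested, 6 had a promoter entry, and 5 of these held TGATTGG on either strand of the 250 bases before the start (H2-Aa, H2-DMb2, H2-Eb1, H2-Oa and H2-Ob). The motif occurs in 7.23% of all 32851 promoter entries. The sequences are those of the reference genome and not of FVB/NJ, and a match of letters is a description.

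The remaining class II genes overlapped with the other strains. Cd74, the invariant chain that accompanies class II molecules, read 8.33, 7.07 and 7.42, against 6.74 to 10.0 with a median of 9.09 (difference -1.26 ± 0.46, limma adjusted p = 0.2). H2-Aa, an alpha chain, read 8.57, 6.96 and 7.40 against 6.24 to 9.84 with a median of 7.97, a difference of -0.52 ± 0.52, while 1 of its 3 other tested probe sets was lower in FVB/NJ (-2.10, limma adjusted p = 0.0271). H2-Ab1, its beta chain partner, read 6.15, 4.38 and 5.03 against 4.07 to 8.33 with a median of 6.12. The A/J arrays were low for these genes too, with H2-Ab1 at 4.07 to 4.90. H2-Ea itself, silent in q and b haplotypes, read 3.47, 3.41 and 3.65 in FVB/NJ, 2.87 to 3.48 in 129S1/ImJ and 3.12 to 3.38 in C57Bl/6J. It read 3.51 to 4.08 in A/J, overlapping with FVB/NJ, 3.78 to 4.89 in C3H/HeJ and 6.23 to 6.64 in DBA/2J. Its difference from the 5 strains together was -0.66 (limma adjusted p = 0.1), and 1 of its other probe sets was past the threshold (-1.18).

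No B cell marker of 18 tested passed the threshold, although 17 of 18 differences were negative, the median was -0.66, and Pax5 was below the level for testing. The summed B cell level was 9.87, 8.72 and 9.09 in FVB/NJ and 8.43 to 11.3 in the others, and its part in the class II result was not tested. In the 7 arrays of other strains with a summed B cell level no higher than the highest FVB/NJ array, H2-Eb1 read 4.95 to 8.21 and H2-DMb2 3.75 to 5.68, above every FVB/NJ array, while Cd74 at 6.74 to 9.09 overlapped with FVB/NJ. The lowest of these values belonged to A/J replicate 3, the array with the lowest summed B cell markers. The 7 arrays were chosen by the highest FVB/NJ level, 9.87, while the other FVB/NJ arrays stood at 8.72 and 9.09. They were thus not matched to each FVB/NJ array and cannot separate B cell content from RNA per cell. Neutrophil markers were negative for 12 of 14 (median -0.76) and monocyte markers for 15 of 19 (median -0.34), with none past the threshold.

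Apart from Ms4a4b, no lymphocyte, neutrophil or monocyte marker passed the threshold with its brightest probe set. Among B cell genes, the receptor Cd72 read 3.42 to 3.52 against 3.54 to 5.17 (difference -0.95, limma adjusted p = 0.0679), Cd22, an inhibitory receptor, differed by -1.22 and Fcmr, the IgM Fc receptor, by -1.14. Among T cell genes, the surface protein Thy1 read 3.26 to 4.31 against 4.23 to 9.01 (-1.76, limma adjusted p = 0.194), and the costimulator Cd28 differed by -0.59. The cytotoxic granule proteases Gzma and Gzmb differed by -1.10 and -0.70 and the interleukin receptor chain Il2rb by -0.52. Of neutrophil genes, the receptor Csf3r differed by -1.55, the protease Mmp9 by -1.25 and the calcium-binding S100a8 by -1.19. The groups of Csf3r overlapped, at 4.69 to 5.56 against 4.56 to 10.29. Of monocyte genes, Ms4a6c differed by -0.67, Treml4 by -0.34 and F13a1, a clotting factor subunit also made by platelets, by 0.48. The other tested set of Ms4a6c was past the threshold (-1.66, limma adjusted p = 0.0083).

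**Figure D2:**
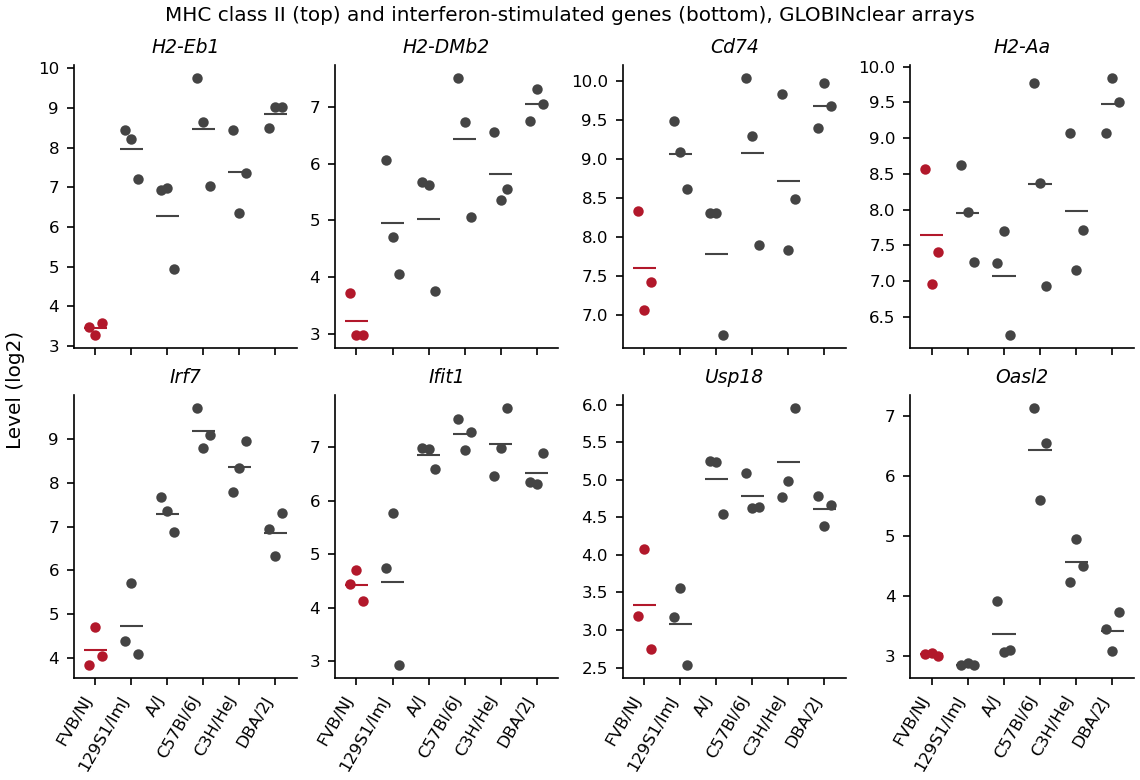
Level (log2, vertical axis) of 4 MHC class II genes (top) and 4 interferon-stimulated genes (bottom) in each GLOBINclear array, by strain, with FVB/NJ in red and a line at each strain mean. H2-Eb1 in FVB/NJ lies below every other array, Cd74 and H2-Aa overlap with them, and the interferon-stimulated genes are low in both 129S1/ImJ and FVB/NJ.

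Interferon-stimulated genes were lower for 5 of 30 members tested and higher for none, where 1.07% and 2.57% of all genes were, and the list's median was -0.28. Irf7, the transcription factor named above, read 3.83, 4.70 and 4.04 in FVB/NJ and 4.10 to 5.70 in 129S1/ImJ. In A/J, C57Bl/6J, C3H/HeJ and DBA/2J it read 6.32 to 9.70, so FVB/NJ lay below 4 strains and overlapped with 129S1/ImJ. The difference was -3.10 ± 0.34, 8.58-fold (limma adjusted p = 9.87e-05), and it was -3.17 ± 0.37 in whole RNA. The 2-group fit gave Irf7 an adjusted p of 0.172. Ifit1, which binds foreign RNA caps, read 4.45, 4.71 and 4.13 in FVB/NJ, 2.92 to 5.77 in 129S1/ImJ and 6.32 to 7.73 in the other 4 strains. FVB/NJ and 129S1/ImJ thus overlapped again and the other strains lay above both groups. Ifit1 was 4.01-fold lower (limma adjusted p = 0.0106). It missed the threshold without FVB/NJ replicate 1 (0.0584) and without replicate 3 (0.0756), and in the 2-group fit (0.278).

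Usp18 is a protease that takes the modifier Isg15 off proteins, and it read 3.19, 4.08 and 2.75 in FVB/NJ, 2.53 to 3.56 in 129S1/ImJ and 4.38 to 5.95 in the other 4, a difference of -1.20 ± 0.28 (limma adjusted p = 0.0282). Ifitm3, which blocks virus entry at membranes, was at 10.04, 9.09 and 9.68 in FVB/NJ, 9.14 to 9.75 in 129S1/ImJ and 10.3 to 11.1 elsewhere (-0.83 ± 0.18, limma adjusted p = 0.0188). Oasl2, of the oligoadenylate synthetase family, lay near background in FVB/NJ (3.03, 3.04 and 3.00) and in 129S1/ImJ (2.84 to 2.88). It was little higher in A/J (3.07 to 3.91) and DBA/2J (3.08 to 3.73), against which FVB/NJ did not pass the threshold. Oasl2 read 4.23 to 4.95 in C3H/HeJ and was highest in C57Bl/6J (5.60 to 7.13). Its difference was -1.10 ± 0.25 (limma adjusted p = 0.021). Each of these calls was lost when single FVB/NJ arrays were left out. Adjusted p rose to 0.152 and 0.236 for Usp18 without replicates 1 and 3, to 0.131 and 0.0667 for Ifitm3 without replicates 2 and 3, and to between 0.0695 and 0.0972 for Oasl2 without any 1 of the 3. In the 2-group fit it was 0.494 for Usp18, 0.434 for Ifitm3 and 0.876 for Oasl2, and with both preparations averaged it was 0.0511 for Usp18 and 0.126 for Oasl2. Ifi27, an interferon-induced membrane protein, read 4.95, 6.84 and 5.12 against 4.38 to 8.57, a difference of -1.61 ± 0.42 that missed the threshold (limma adjusted p = 0.0502), and passed it without FVB/NJ replicate 2 (0.0101).

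Of members that did not pass, Rsad2, an antiviral enzyme, and Isg20, an exonuclease, differed by -0.10 and -0.02, and Mx1, an antiviral GTPase, was at background in every strain (3.12 to 3.18 in FVB/NJ, 3.07 to 3.30 elsewhere). Usp18, Oasl2, Ifi27, Rsad2 and Isg20 were picked after their values were seen. The Ifit1 promoter is shown as the only lower member with a promoter entry in which a core of the interferon-stimulated response element, GAAA followed by any 2 bases and a further GAAA, was found. It is 100 bases of RefSeq sequence (GRCm38.p6, chr19:34640749-34640848, plus strand), with its 2 matches in capitals, both on the opposite strand.
Ifit1: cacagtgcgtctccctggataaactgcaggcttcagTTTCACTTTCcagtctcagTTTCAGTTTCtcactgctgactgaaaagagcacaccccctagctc
The motif was searched on both strands, and overlapping matches were counted. It was found in 7 of 21 tested interferon-stimulated genes with an entry, in 1 of the 4 lower ones with an entry, and in 2.98% of all promoter entries. In the related Ifi200 and Trim5-like list 1 of 10 members was lower, where 1.07% of all genes were. This was Mndal, of a family of DNA sensors, at 3.09, 3.20 and 3.19 in FVB/NJ, 3.13 to 3.24 in A/J and DBA/2J, and 5.78 to 8.45 in the other 3 strains (-2.45 ± 0.36, limma adjusted p = 0.00107). Its call did not hold in the 2-group fit (0.637).

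Class I genes gave readings that depended on the probe set. The brightest set of H2-D1, a class I heavy chain, read 11.7, 10.7 and 11.7 in FVB/NJ against 7.58 to 11.3, and that of H2-K1, another heavy chain, read 11.4, 10.4 and 11.6 against 6.28 to 11.2. The differences were 1.35 ± 0.25 (limma adjusted p = 0.00611) and 1.32 ± 0.27 (limma adjusted p = 0.012). Of the 8 tested probe sets of H2-D1, however, 3 were higher and 4 were lower in FVB/NJ, with differences from -2.96 to 1.46, so no direction can be given for the gene. For H2-K1 the 3 other sets ran from -0.25 to 0.69 and none was past the threshold. Neither call held without FVB/NJ replicate 1 or without replicate 3 (adjusted p 0.063 and 0.0599 for H2-D1, 0.097 and 0.111 for H2-K1), nor in the 2-group fit (0.799 and 0.878). Most of these sets are of a kind that can match several transcripts, and the probe sequences were not analysed here. Psme1, a subunit of the interferon-inducible proteasome activator, was lower at 6.14, 5.71 and 5.88 against 6.38 to 7.89 without overlap (-1.11 ± 0.25, limma adjusted p = 0.02), with adjusted p between 0.0563 and 0.0949 when any 1 FVB/NJ array was left out, 0.0516 without the filter and 0.115 in the 2-group fit.

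Further genes set FVB/NJ below all other arrays. Itga4, an alpha chain of leucocyte integrins, read 2.44 to 2.98 in FVB/NJ against 4.52 to 6.67 with a median of 6.29. The difference was -3.31 ± 0.27 (limma adjusted p = 5.94e-06), yet another set of the gene was higher in FVB/NJ (1.02) and the remaining pair did not pass (-0.52 and 0.01). The direction for Itga4 thus depends on the probe set. Borcs5, a subunit of a complex that positions lysosomes, read 3.54, 3.52 and 3.35 against 4.72 to 7.39 with a median of 6.82, a difference of -3.15 ± 0.45 (limma adjusted p = 0.000787). In whole RNA the Borcs5 groups almost met, at 3.52 to 3.54 against 3.58 to 5.44. Pgd, an enzyme of the pentose phosphate pathway that makes NADPH, read 4.83, 4.53 and 4.96 against 6.13 to 7.86 with a median of 6.74. For Pgd all 3 other tested probe sets were lower as well (-1.69 to -1.06), beside -1.95 ± 0.25 for the brightest (limma adjusted p = 0.000294).

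Among the others, D17H6S56E-5, a transcript of the chromosome 17 MHC region by its name, stood at 2.41 to 2.42 against 3.75 to 5.92, and its second set was lower too (-1.48). Ank, a transporter involved in pyrophosphate export, was at 6.70, 7.57 and 6.93 against 7.97 to 10.7 (-2.03 ± 0.36, limma adjusted p = 0.00446). Ncoa7, a nuclear receptor coactivator, read 4.56, 5.47 and 4.62 against 5.37 to 8.80, so that 1 array overlapped, and was lower than each of the 5 strains (-3.08 ± 0.49, limma adjusted p = 0.00209). Tdrd7, a protein of RNA granules, and Tmed8 were lower without overlap, with differences of -1.74 and -1.66. Slfn4, a Schlafen gene of myeloid cells, stood at 2.83 to 2.86 against 3.01 to 6.50 (-1.90), and Lipa, the lysosomal acid lipase, at 2.93 to 3.16 against 3.55 to 5.75 (-1.56). The calls of Slfn4 and Lipa were lost without FVB/NJ replicate 1 (adjusted p = 0.0504) and replicate 3 (0.0579), respectively, and both lie near background. That of Slfn4 did not hold in the 2-group fit (0.401), nor that of Lipa with the mean of its probe sets (0.5).

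The genes furthest above the other strains included Slc15a2, a proton-coupled transporter of short peptides. FVB/NJ arrays read 6.35, 6.11 and 6.17, and the others ran from 2.61 over a median of 2.69 to 4.36. The groups did not overlap, and the difference of 3.24 ± 0.25 was 9.47-fold (limma adjusted p = 3.29e-06). The predicted gene Gm10451 read 6.72, 6.05 and 7.19, while the 15 other arrays all lay between 3.44 and 3.63 (3.12 ± 0.15, limma adjusted p = 1.79e-08). Both were higher than in each of the 5 strains, and both differences were smaller in whole RNA (1.08 ± 0.09 and 0.82 ± 0.07), in which Slc15a2 read 3.85 to 3.95 against 2.68 to 3.30.

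Pck2, the mitochondrial phosphoenolpyruvate carboxykinase, was at 10.06, 10.90 and 10.44 against 6.67 to 8.89 and was higher than in each of the 5 strains. Its difference was 2.55 ± 0.35 (limma adjusted p = 0.000574), and its other probe set gave 2.11. Nudt19, a peroxisomal hydrolase of coenzyme A, read 6.37, 6.50 and 6.28 against 3.53 to 5.08 (2.36 ± 0.19, limma adjusted p = 5.88e-06), whereas its other set did not pass (-0.22). Rabif, a chaperone of Rab GTPases, read 6.47, 5.95 and 5.56 against 3.10 to 4.51, a difference of 2.36 ± 0.24 (limma adjusted p = 5.1e-05). None of these overlapped with the other strains. Itih4, a plasma protein of the inter-alpha-trypsin inhibitor family, read 5.17, 5.22 and 5.36 against 2.43 to 4.24. In whole RNA the Itih4 difference shrank from 2.33 to 0.23, with FVB/NJ replicate 3 at 2.66 inside the range of the others (2.65 to 2.74). Accsl read 6.36, 5.99 and 6.42 against 2.59 to 5.32 (2.50 ± 0.27), the closest strain being C3H/HeJ at 4.76 to 5.32.

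**Figure D3:**
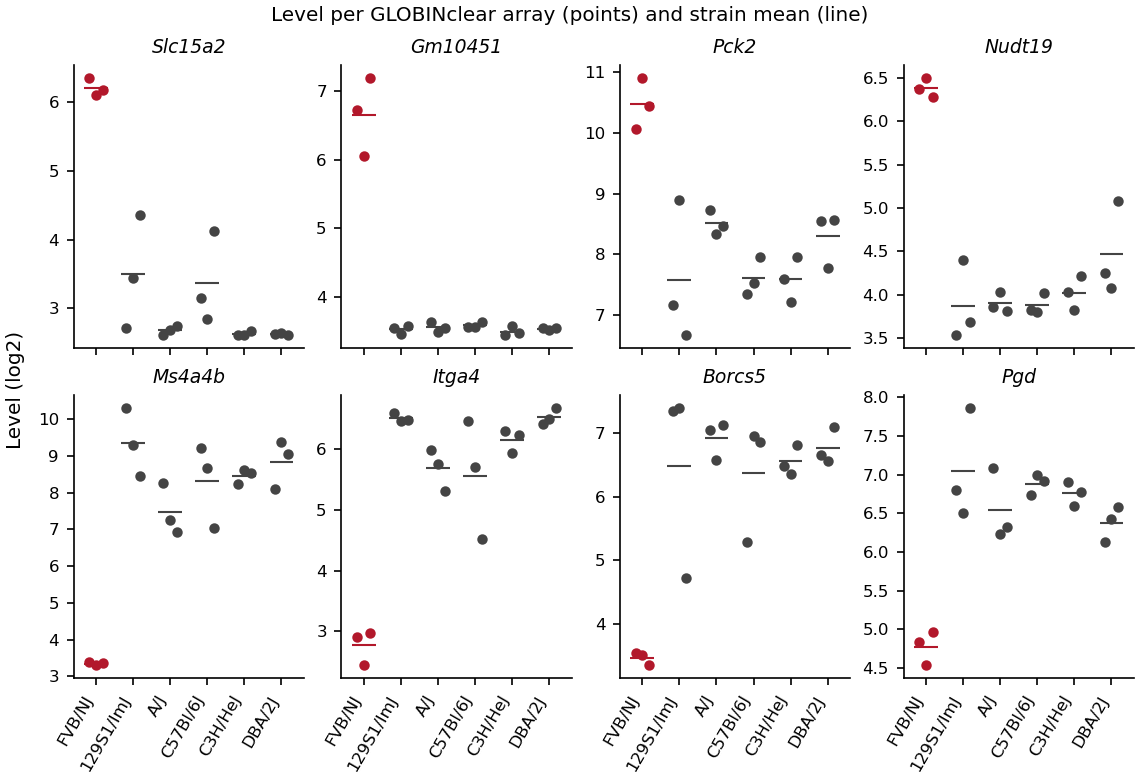
Level (log2, vertical axis) of 4 genes higher (top) and 4 genes lower (bottom) in FVB/NJ than in each of the other strains, 1 point per GLOBINclear array and a line at the strain mean. FVB/NJ points (red) lie above 6.00 for Slc15a2 and Gm10451, where the others reach 4.36 and 3.63, and below 3.60 for Ms4a4b, where the others start at 6.94. Each gene is shown by its brightest probe set, and another set of Itga4 was higher in FVB/NJ.

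A few of the largest differences were shared with some strains or rested on a single array. Sh3d19, an adaptor with SH3 domains, read 6.66, 7.41 and 6.62, close to DBA/2J at 5.78 to 6.53 and far from C3H/HeJ at 2.94 to 3.11. The Sh3d19 call did not hold in the 2-group fit (adjusted p = 0.128). Trip4, a transcription coactivator subunit, read 6.45 in FVB/NJ replicate 2 and at most 4.82 in the others, against 2.56 to 4.24 in the other strains, and its difference of 2.09 fell to 1.48 without FVB/NJ replicate 2 (adjusted p = 0.0512). Ptpn14, a tyrosine phosphatase, read 6.06, 7.03 and 6.13 against 2.26 to 5.86 and lost its call without any 1 of 8 arrays (adjusted p 0.0505 to 0.17), the 3 FVB/NJ arrays among them, in the 2-group fit (0.137), with the replicate number as a block (0.0603) and without the filter (0.0746). Josd2, a deubiquitinase of the Josephin family, read 9.58, 9.84 and 9.46, within the range of 129S1/ImJ (8.11 to 10.7) and below C3H/HeJ (9.93 to 10.2), with the 3 remaining strains at 3.40 to 6.54. Gdpd3, a phosphodiesterase of lysophospholipids, was at 12.85 to 12.89 in FVB/NJ and 13.3 to 13.4 in 129S1/ImJ and at background, 2.09 to 2.22, in the other 4 strains, which gave the largest difference of all (8.48 ± 0.11). In the 2-group fit neither passed (adjusted p 0.754 for Josd2 and 0.191 for Gdpd3).

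Of 19 redox enzymes tested, 3 were higher and 2 were lower, with a median of 0.02, where 2.57% and 1.07% of all genes and 8.61% and 3.33% of genes above log2 9 were. Gstt1, a glutathione transferase of the theta class, read 5.66, 7.54 and 5.82 against 3.43 to 5.03 and was higher than in each strain (2.28 ± 0.31, limma adjusted p = 0.000559). Sod1, the cytosolic superoxide dismutase, read 10.2, 10.4 and 10.1 against 8.23 to 9.72, without overlap (1.06 ± 0.17, limma adjusted p = 0.00199), and its other tested set gave 1.24. Gpx4, which reduces lipid peroxides, read 11.91, 12.54 and 11.97 against 10.96 to 11.90, so that the groups met at their edge (0.76 ± 0.14, limma adjusted p = 0.00512). Cat, the catalase of red cells, was lower at 11.7, 12.3 and 11.7 against 11.9 to 13.1 (-0.62 ± 0.11, limma adjusted p = 0.0056), with overlap through replicate 2. Its call was lost without FVB/NJ replicate 1 (0.0625) or 3 (0.0601) and with the mean of its probe sets (0.0908). In the 2-group fit the adjusted p was 0.0773 for Sod1, 0.125 for Gpx4 and 0.418 for Cat. Gsta2, an alpha class transferase named after its values were seen, differed by -1.49 ± 0.27 and was not followed through the 2-group fit or the other alternatives. For Gstt1 and Gpx4 replicate 2 was the highest of the 3 FVB/NJ arrays, as it was for the red cell membrane genes, and the part of reticulocyte content in these results was not tested.

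Few red cell genes passed the threshold. Of all genes 2.57% were higher and 1.07% lower, and of genes above log2 9, 8.61% and 3.33%. None of 21 membrane and cytoskeleton genes passed (median 0.22), and 1 of 20 heme and iron genes did (median 0.04). That gene was Tspo2, an erythroid cholesterol-binding protein, at 6.65, 7.74 and 6.53 in FVB/NJ and 6.17 to 11.25 elsewhere, with C57Bl/6J highest at 10.96 to 11.25. Its difference of -1.90 ± 0.36 (limma adjusted p = 0.00708) missed the threshold without FVB/NJ replicate 1 (0.0613) or replicate 3 (0.0631) and in the 2-group fit (0.454). Of the 26 other erythroid genes, Bcl2l1, a survival factor of red cell precursors, was higher (11.11, 11.86 and 11.03 against 9.96 to 11.15, difference 0.70) and Cat was lower. The Bcl2l1 call did not hold without any 1 of 4 arrays (adjusted p 0.0507 to 0.231), FVB/NJ replicates 1 and 2 and A/J replicates 1 and 2. It was also lost with quantile normalization (0.076), without the filter (0.0644), with the block (0.0579), with the mean of probe sets (0.137) and in the 2-group fit (0.224). Of genes that the naming rule selects and that did not pass, the ferritin chain Fth1 differed by 0.25, the phosphatase Acp1 by 0.93, the membrane proteins Cd47, Add1 and Gypc by -0.53, -0.59 and 0.79, and the globin genes Hbb-b2, Hbb-y and Hba-x by 0.72, -0.59 and 0.16. Of 3 sets shared by the alpha globin genes Hba-a1 and Hba-a2, 1 read 14.4 to 14.6 in FVB/NJ and 14.5 to 14.8 in C3H/HeJ against 12.3 to 12.8 in the other 4 strains. The second alpha set gave 13.04 to 13.27 in FVB/NJ against 13.16 to 13.84 in the 5 other strains. The third gave 13.62 to 13.72 against 13.55 to 13.86. The globin sets were looked at after their values were known.

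All 21 platelet markers tested had a positive difference, with a median of 0.42. Of them 3 passed the threshold, where 2.57% of all genes and 8.61% of genes above log2 9 were higher. F2rl2, a thrombin receptor cofactor on mouse platelets, read 6.94, 7.11 and 7.39 in FVB/NJ, against 2.68 to 3.15 in 129S1/ImJ and A/J and 5.58 to 6.87 in the other 3 strains. It lay above all 15 others (2.34 ± 0.15, limma adjusted p = 4.35e-07), and its call did not hold in the 2-group fit (0.429). Vwf, von Willebrand factor, read 11.03, 10.60 and 11.07 against 9.14 to 11.25, and Rgs18, a regulator of G protein signalling in platelets, read 12.37, 11.37 and 12.04 against 9.74 to 12.16. Both overlapped, with differences of 0.83 ± 0.20 (limma adjusted p = 0.0322) and 0.76 ± 0.19 (limma adjusted p = 0.0376). The Vwf call was lost without any 1 of 5 arrays, A/J replicate 3, C3H/HeJ replicate 3, DBA/2J replicate 1 and FVB/NJ replicates 1 and 3 (adjusted p up to 0.184). The Rgs18 call was lost without any 1 of 11 arrays, which included every A/J and C3H/HeJ array and FVB/NJ replicates 1 and 3 (adjusted p up to 0.303). Both were also lost with quantile normalization (0.065 and 0.0649), without the filter (0.0669 and 0.0762), with the block (0.0569 and 0.0716) and in the 2-group fit (0.496 and 0.777), and Rgs18 with both preparations averaged (0.0842) and with the mean of its probe sets (0.0869). The summed platelet level of FVB/NJ, 16.11, 15.64 and 16.17, lay within that of the other arrays (15.27 to 16.20, median 15.64), and its part in these results was not tested.

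**Figure D4:**
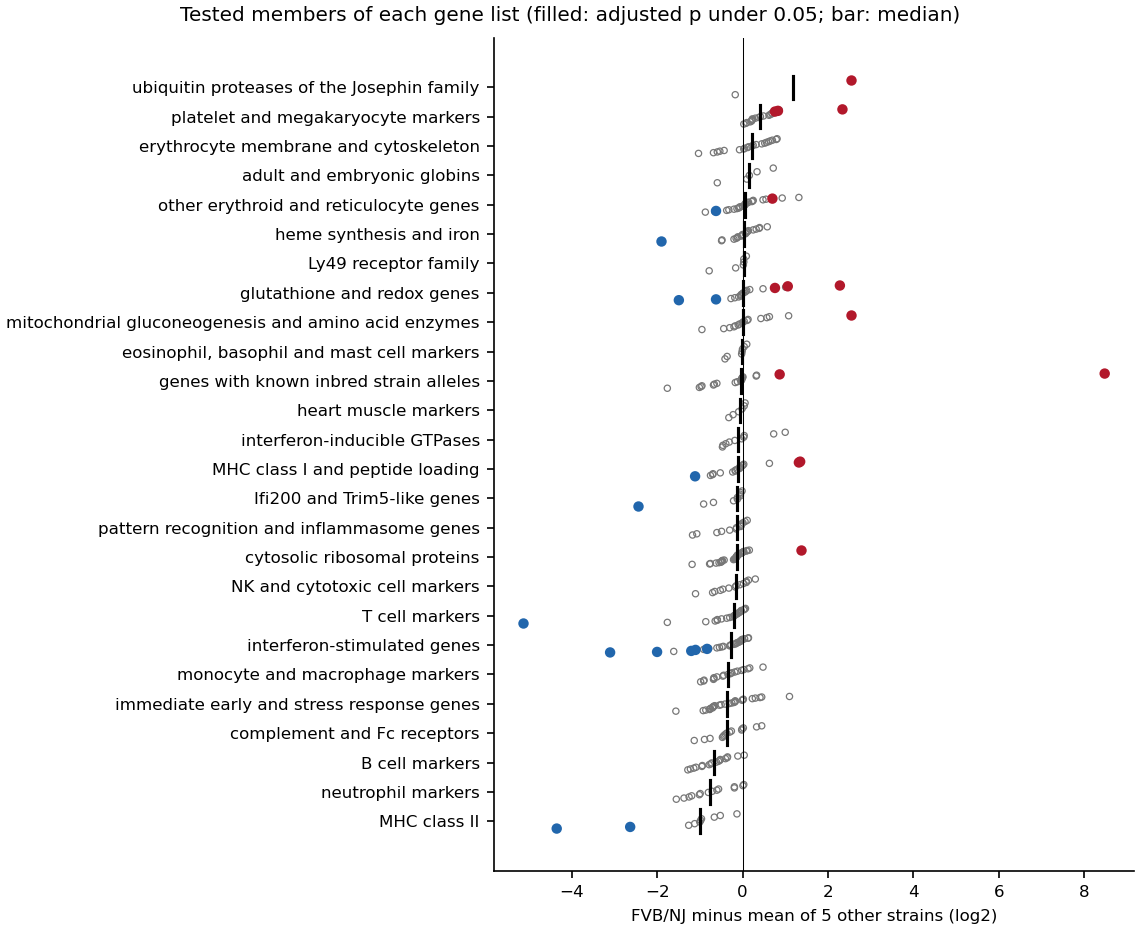
Difference between FVB/NJ and the mean of the other strains (log2, horizontal axis) for each tested member of the 26 gene lists, 1 row per list ordered by median (black bar). Filled points passed the threshold. MHC class II members all lie below 0 and platelet markers all lie above it, while 24 of the 26 other erythroid genes and 25 of the 30 interferon-stimulated genes are open circles, not past the threshold.

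Of 35 ribosomal protein genes 28 had a negative difference, with a median of -0.14. Among them 1 was higher, where 2.57% of all genes and 8.61% of genes above log2 9 were. At unadjusted p under 0.05, 12 were lower and 1 higher, where 1486 of all 11353 genes passed that cut in either direction. Rps20 and Rps14 differed by -0.62 and -0.17 (limma adjusted p = 0.0568 and 0.0619), and another probe set of Rps14 was past the threshold (-0.29, adjusted p = 0.0446). Rps6, of the small subunit, gave 4.95, 4.89 and 4.52 against 2.56 to 5.22, overlapping with 1 C57Bl/6J array (1.37 ± 0.28, limma adjusted p = 0.0126) and differed by 0.03 in whole RNA. With a mean of 3.17 over all 36 arrays, Rps6 lay near the level for testing, while the list averaged 10.21 to 10.44 in FVB/NJ. Its call was lost without FVB/NJ replicate 1 (0.0863) or 2 (0.0556) and in the 2-group fit (0.1). Among 19 tested genes with known inbred strain alleles 2 were higher, Gdpd3 and Nnt, where 2.57% of all genes were. Nnt, the mitochondrial transhydrogenase, of which C57Bl/6J carries a deletion allele, read 5.30, 4.76 and 4.88 in FVB/NJ, 3.78 to 3.82 in C57Bl/6J and up to 4.78 elsewhere (0.87 ± 0.20, limma adjusted p = 0.025). The other tested set of Nnt gave -0.01, and the call was lost without FVB/NJ replicate 1 (0.189) or 3 (0.0788), in the 2-group fit (0.0689) and with the mean of its probe sets (0.403). Genes at which FVB/NJ is known to carry loss-of-function alleles were at background in every strain. The complement gene Hc averaged 2.88 in FVB/NJ, against 2.81 to 3.07 elsewhere, the photoreceptor gene Pde6b averaged 2.88, against 2.79 to 2.96, and the pigment gene Tyr was at 3.17 to 3.29, against 2.98 to 3.52. Apoa2, Tlr4 and Ifi202b, at -0.02, -0.04 and -0.12 (log2), did not pass either. Glo1, the glyoxalase, read 8.64, 10.05 and 8.43 against 9.10 to 10.72, a difference of -1.01 (limma adjusted p = 0.109). The leucocyte phosphatase Ptprc differed by -0.97, the antiviral family member Trim12c by -0.68, the metal transporter Slc11a1 by -0.60, Cdh23, a cadherin, by -0.17, and Wdfy1 and Alad, an enzyme of heme synthesis, by 0.33 and 0.32. None of these passed the threshold with its brightest set, while another set of Wdfy1 did (0.74, limma adjusted p = 0.0197).

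No member passed the threshold in several further lists. These were 14 NK and cytotoxic cell markers (median -0.16), 6 Ly49 receptors (0.02), 7 eosinophil, basophil and mast cell markers (-0.01), 5 globin genes (0.16), 10 interferon-inducible GTPases (-0.10), 15 complement and Fc receptor genes (-0.37), 13 pattern recognition genes (-0.14) and 28 immediate early genes (-0.36). The members that the naming rule selects ran from -0.78 for Klra17 to 0.09 for Klra16, with Klra2 at -0.16, among Ly49 receptors, from -0.41 for Gata2 to 0.04 for Prg2, with Hdc at -0.36, among granulocyte and mast cell genes, and from -0.32 for Tnnt2 over -0.22 for Mb to -0.09 for Myl3 among heart genes. Of the GTPases, Gbp7 differed by 1.00, Irgm2 by 0.73 and Gbp6 by -0.18, and Trim30a of the Trim5-like genes by -0.91. The Fc receptors Fcgr4 and Fcgr3 differed by -0.89 and -1.13 and the complement receptor C3ar1 by 0.45. The adaptor Myd88 differed by -1.07 and the glucan receptor Clec7a by -1.17. Of the stress genes, the chaperone Dnajb1 read 6.90, 6.35 and 6.23 against 4.73 to 6.81 (1.10 ± 0.29, limma adjusted p = 0.0504), while the phosphatase Dusp1 differed by -1.56 and the transcription factor Ddit3 by -0.76. The other set of Dnajb1 was past the threshold (0.99, limma adjusted p = 0.00302). Pck2 was the 1 higher gene of 17 mitochondrial gluconeogenesis and amino acid enzymes (median 0.01), and Josd2 that of 2 Josephin proteases. Of all genes 2.57% were higher. Aldh18a1, an enzyme of proline synthesis, differed by 1.08 and the aminotransferase Got2 by -0.95, and Atxn3, the other Josephin protease, by -0.17, with none of these past the threshold. Another set of Aldh18a1 was past it (0.59, limma adjusted p = 0.0381). Of 18 class I and peptide loading genes, H2-D1 and H2-K1 were counted as higher and Psme1 as lower (median -0.10), where 2.57% and 1.07% of all genes were.

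Genes that neighbour each other in the annotation were looked at after the calls were known. Of 393 called genes with a place in the RefSeq table, 11 pairs were direct neighbours, and all 11 were pairs of genes higher in FVB/NJ. More genes were called higher (292) than lower (121). The number of such pairs to expect among all tested genes was not computed, so the 11 have no background beside them. In 3 pairs both genes kept their call whichever single array was left out. These were Itfg1 and Phkb (1.73 ± 0.22 and 1.62 ± 0.19), Mapkapk2 and Dyrk3 (1.24 ± 0.21 and 1.12 ± 0.17), and Vps35l and Knop1 (1.17 ± 0.17 and 0.93 ± 0.14). Phkb, the beta subunit of phosphorylase kinase, read 7.09, 6.36 and 6.78 against 4.22 to 5.99, and its neighbour Itfg1 read 5.93, 5.51 and 6.50 against 3.49 to 5.15. Neither overlapped with the other strains. Dyrk3, a kinase expressed in erythroid cells, read 3.51, 4.68 and 4.28 against 2.60 to 3.51. Vps35l read 6.30, 6.16 and 6.41 and overlapped with C57Bl/6J (5.84 to 6.53) and A/J (5.71 to 6.26). Knop1, at 4.24, 4.27 and 4.67, overlapped with C57Bl/6J (4.03 to 4.47). In the 2-group fit the calls of Phkb (0.0576), Mapkapk2 (0.115), Vps35l (0.487) and Knop1 (0.145) did not hold, nor that of Mapkapk2 with both preparations averaged (0.0598). The other pairs were Asb3 and Chac2, Slc35b1 and Spop, Cavin1 and Atp6v0a1, Tatdn1 and Ndufb9, Dennd4c and Rps6, Tmem33 and Slc30a9, Ache and Ufsp1, and Smarca5 and Gab1, with differences from 0.48 for Spop to 1.72 for Tmem33 and Atp6v0a1. Of the genes in these pairs, only Tmem33, Tatdn1 and Gab1 kept the call in the 2-group fit. For the rest the limma adjusted p there ran from 0.0618 for Atp6v0a1 to 0.855 for Spop. Ache and Ufsp1 overlapped with C57Bl/6J and differed by -0.02 and -0.01 in whole RNA, where the other genes of these pairs stayed positive.

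Whole RNA of the same mice pointed the same way for 275 of the 292 higher and 114 of the 121 lower genes. All 43 named genes past the threshold kept their direction there, the difference being smaller for 29 and larger for 14. It was larger, for example, for Sod1 (1.51 ± 0.24 beside 1.06) and Gpx4 (1.16 ± 0.19 beside 0.76) and smaller for Ms4a4b (-3.70 ± 0.43 beside -5.13) and H2-Eb1 (-2.67 ± 0.60 beside -4.35). Both preparations come from the same animals, so this is no independent replication. Of the 43 genes, 22 had a further tested probe set, and for 8 of these another set was past the threshold in the same direction, as for Pck2, Pgd, Sod1, Gpx4, Mndal and D17H6S56E-5. For 14 no other set was.

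**Figure D5:**
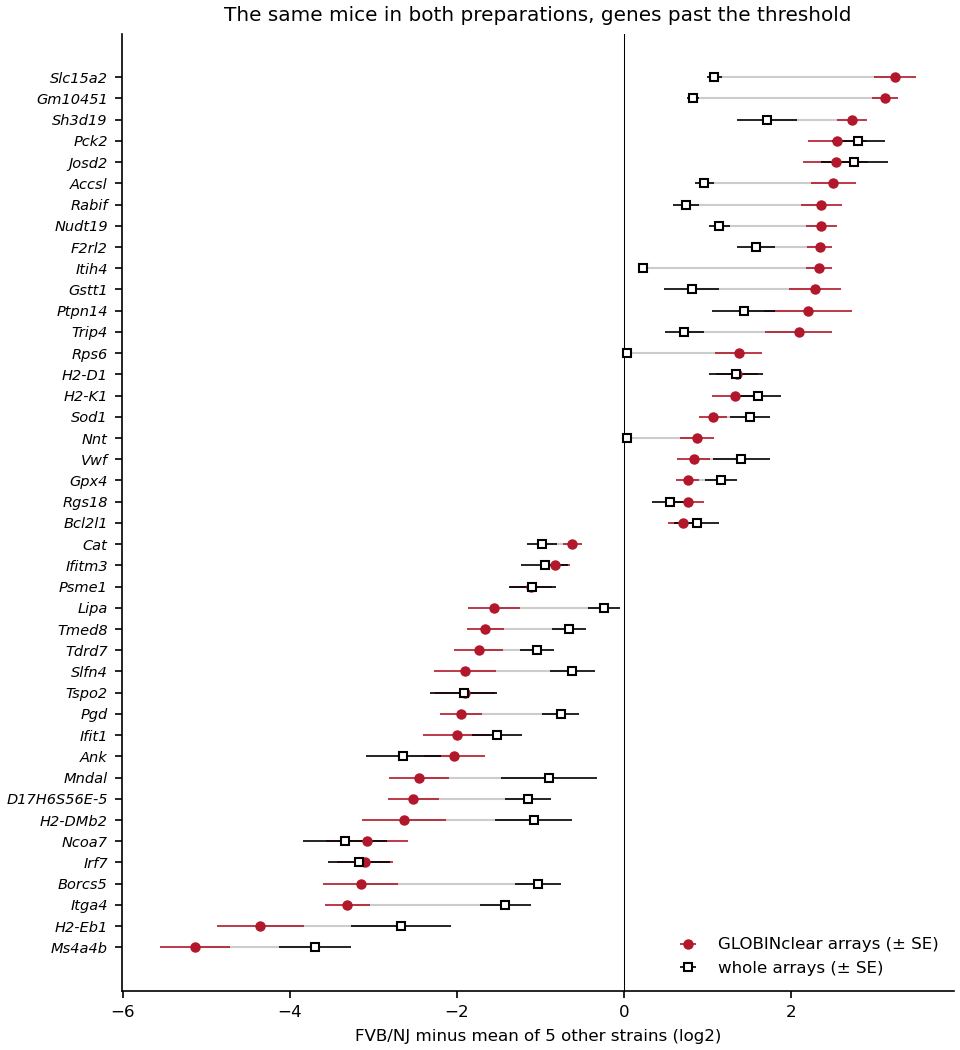
Difference between FVB/NJ and the mean of the other strains (log2, horizontal axis) in GLOBINclear RNA (filled) and whole RNA (open), with standard errors, for the named genes past the threshold except Gdpd3, which lies off this scale at 8.48 and 8.96. Each pair of points lies on the same side of 0, and for Slc15a2, Gm10451 and Itih4 the whole RNA point lies much nearer to 0.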

How the data were processed

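The values analysed are the log2 levels of 45101 probe sets that the authors deposited for each Affymetrix array. GCRMA, MAS5 and the affy package are listed per the submitters' processing notes, without version or role. No source used here states if GLOBINclear and whole arrays were scaled jointly. The log2 scale was read from the values, and low values carry background, which compresses differences.

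Samples were grouped by title. After 64 control sets were set aside, 22518 probe sets with a mean over all 36 arrays above the median (log2 2.89) were tested with limma 3.58.1 in R 4.3.3 (with the package data.table, version 1.17.8). The fit had 1 mean per strain over the 18 GLOBINclear arrays, eBayes with an intensity trend, and Benjamini-Hochberg adjustment at 0.05, and was tested on simulated data. Of the probe sets, 34945 had 1 symbol, 932 several and 9160 none. A gene was represented by its brightest set with 1 symbol, which gave 11353 tested genes. SE is that of the limma contrast. The labels give 3 mice per strain, and the number of arrays limits the precision. Replicate numbers of the titles were not used to pair the arrays across strains, except as a block in 1 alternative.

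The comparison and its 26 gene lists were chosen with earlier results of these data known. Named were the 12 genes per direction with the largest difference among those past the threshold and outside the range of the other arrays, 5 per direction with the largest smallest pairwise difference, up to 3 members per list by moderated statistic, all tested strain allele genes, and Pck2 and Josd2. Genes outside this rule are named as such or as counts require. Alternatives were other normalizations, filters, error models, both preparations averaged, the mean of a gene's probe sets, and each array left out. Figures used python 3.11.15, matplotlib 3.10.9 and pandas 2.3.3.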

Additional observations from a re-analysis of the deposited data

How the results depend on the processing

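Of 66 called genes followed through the alternatives, 21 kept direction and call in each of those run for them. Pck2, Ms4a4b, H2-Eb1, Itga4, Borcs5, Ank, Pgd and Ncoa7 did so in all 27, while the other 13, among them Slc15a2 and Gm10451, have a mean under log2 5 and were not in the fit with that minimum. For Itga4 the difference came down to -0.56 under 1 alternative, and of its 4 tested sets 1 was called higher and 1 lower. Of the 66, 33 kept the call without any 1 array. The error model changed most. With the 15 other arrays as 1 group, so that differences among the other strains count as error, 149 probe sets were higher and 25 lower, and 67 and 14 genes. In that fit 41 of the 66 calls were lost, among them Irf7 (adjusted p = 0.172), Sod1 (0.0773) and Gdpd3 (0.191). Without a filter 186 genes were higher. With a mean of at least log2 5, which leaves far fewer genes to count from, 5 genes were higher than in every strain. In that set 30 lay above and 14 below all other arrays. Averaging the probe sets of a gene turned H2-D1 to -0.49. Leaving out 1 array gave 293 to 666 probe sets higher and 113 to 308 lower, 141 to 334 genes higher and 60 to 179 lower, 15 to 29 and 5 to 10 genes apart from every strain, and 99 to 303 above and 39 to 128 below the other arrays. With the replicate number as a block 253 genes were higher and 115 lower, and 57 of the 66 calls were kept. Deviations from the strain mean correlated at -0.40 to 0.55 over 45 pairs of same-numbered arrays, with 17 over 0.1. Their median was 0.05, against -0.01 for arrays of different number. These values do not settle if the numbers pair the arrays. Of 68 uncalled genes followed, 24 passed the threshold under some alternative. Where not shown by the alternative's own construction, the cause was not tested. Signal over background limits what can be read: 0.926% of genes up to log2 3.5 were higher, against 8.61% above log2 9.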
